A study of Mus musculus with 21 samples.

Results

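Capillarization is the loss of the specialised state of liver sinusoidal endothelium. These cells line the sinusoids, have open fenestrae and no organised basement membrane, and clear macromolecules from blood through scavenger and endocytic receptors. In chronic liver injury they are known to lose fenestrae and receptors and to gain markers of continuous capillary endothelium with a basement membrane beneath. The genes described here are 7 markers of the sinusoidal state (Stab1, Stab2, Lyve1, Clec4g, Oit3, Fcgr2b and Kdr) and 3 markers of capillarized or continuous endothelium (Vwf, Plvap and Cd34). They were matched by gene name, which gave all 10 in each of the 3 deposited tables, of 34280 genes in the thioacetamide table and 54532 genes in the CCl4 table and in the hepatocyte table. The rule uses names alone, but the names were chosen with earlier results of these data known.

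RNA was sequenced from 21 mouse samples, 3 in each of 7 groups, and the series title names STING, hepatocyte pyroptosis and the NLRP3 inflammasome in liver fibrosis. The first table holds livers labelled Sting knockout given intraperitoneal carbon tetrachloride (CCl4, a hepatotoxin), wild-type livers given CCl4 and wild-type livers given oil, each for 6 weeks by the labels, although the design text has 8 weeks. The second holds livers with Nlrp3 deleted in hepatocytes only (Nlrp3 dHep) and wild-type livers, all given intraperitoneal thioacetamide (TAA, another hepatotoxin) for 8 weeks. The third holds wild-type primary hepatocytes given lipopolysaccharide (LPS) for 6 h and nigericin, an ionophore that activates NLRP3, for 30 min, with or without the NLRP3 inhibitor MCC950 from 2 h before. The labels give no strain, age or sex, and name neither the Sting allele nor the promoter that drives the hepatocyte deletion. Saline-treated livers, oil-treated Sting knockout livers and unstimulated hepatocytes were not analysed here. The labels leave unsaid whether replicates are separate animals or cultures. The p-values thus rest on the scatter among these libraries, which may be technical. The livers were bulk tissue, in which fewer endothelial cells and less RNA per cell cannot be told apart.

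Total counts were 32096879 to 68913793 per TAA library. In the CCl4 table the recovered reads summed to between 14353483 and 16684832, and in the hepatocyte table to between 14883710 and 17157586. Sting1 was at 3.42, 1.98 and 5.28 FPKM (fragments scaled to gene length and library size) in the libraries labelled Sting knockout, against 6.10, 5.15 and 4.74 FPKM in wild-type CCl4 livers. One of the 3 lies within the wild-type range, and their sample titles carry codes that begin with SWT, so they are called by their label throughout. Nlrp3 was at 0.08, 0.37 and 0.25 FPKM in Nlrp3 dHep livers, against 0.15, 0.11 and 0.17 FPKM in wild-type TAA livers. Since macrophages and other liver cells carry Nlrp3 RNA, whole tissue gives no check of a deletion in hepatocytes. A few libraries stood apart by base composition or transcript length. In wild-type CCl4 replicate 3, the deviation of a gene from its median over the table ran against its GC content (Spearman's rho of −0.65 across 11511 genes, which are not independent replicates). In replicate 2 of the libraries labelled Sting knockout it ran against transcript length (rho −0.59), and in Nlrp3 dHep replicate 1 it did so more weakly (rho −0.31). Results that rest on these 3 libraries are also given without them. Oil replicate 3 ran against GC content too (rho −0.37), as did Nlrp3 dHep replicate 3 (rho −0.28). So did hepatocyte replicates 1 and 3 with MCC950 (−0.45 each), while replicates 2 and 3 without it ran with GC content (0.52 and 0.35). Across 9835 genes, the log2 fold change with MCC950 against no inhibitor ran against GC content (rho −0.56).

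The members differ in structure and position. Stab1 (chromosome 14, 31139013 to 31168641, minus strand; coordinates here are those of the deposited tables, mm10) and Stab2 (chromosome 10, 86841198 to 87008025, minus strand) encode stabilin-1 and stabilin-2, large paralogous scavenger receptors. Lyve1 (chromosome 7, 110850607 to 110863239, minus strand) encodes a hyaluronan receptor that lymphatic endothelium and some macrophages also carry. Clec4g (chromosome 8, 3707064 to 3720651, minus strand) encodes the C-type lectin LSECtin. Oit3 (chromosome 10, 59422958 to 59441778, minus strand) encodes a protein that marks hepatic sinusoidal endothelium. Fcgr2b (chromosome 1, 170958617 to 170976547, minus strand) encodes the inhibitory Fc gamma receptor, also carried by B cells and macrophages. Kdr (chromosome 5, 75932827 to 75978458, minus strand) encodes VEGF receptor-2. Vwf (chromosome 6, 125546774 to 125686679, plus strand) encodes von Willebrand factor, which platelets also store. Plvap (chromosome 8, 71497765 to 71511752, minus strand) encodes the protein of the diaphragms that bridge fenestrae and caveolae. Cd34 (chromosome 1, 194938819 to 194961279, plus strand) encodes a sialomucin that fibroblasts and blood progenitors also carry. The GC content of the longest transcript ran between 42.8% for Cd34 and 60.6% for Plvap.

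Promoters were matched in RefSeq (GRCm38.p6) for 6 of the 10 genes: Stab1, Stab2, Clec4g, Fcgr2b, Kdr and Cd34. Lyve1, Oit3, Vwf and Plvap are named only. The bases upstream of the deposited gene start are shown for Cd34, which was called higher in CCl4 livers than in oil livers, and for the paralogs Stab1 and Stab2, whose fitted changes in Nlrp3 dHep livers lay below 0 while those of the other 5 sinusoidal genes lay above it. They run 5′ to 3′ along the gene. Capitals mark letters of the GATA family (AGATAA or AGATAG or TGATAA or TGATAG) and the ETS family (CCGGAA or CAGGAA), 2 families known for their part in endothelial gene control, on either strand. The first is chr1:194938571-194938818, plus strand, the second chr14:31168642-31168891, minus strand, and the third chr10:87008026-87008192, minus strand.
Cd34: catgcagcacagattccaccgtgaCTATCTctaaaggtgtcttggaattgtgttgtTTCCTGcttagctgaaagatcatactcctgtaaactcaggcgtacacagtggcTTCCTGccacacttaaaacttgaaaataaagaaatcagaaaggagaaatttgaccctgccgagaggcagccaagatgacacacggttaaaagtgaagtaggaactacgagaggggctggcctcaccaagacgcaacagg
Stab1: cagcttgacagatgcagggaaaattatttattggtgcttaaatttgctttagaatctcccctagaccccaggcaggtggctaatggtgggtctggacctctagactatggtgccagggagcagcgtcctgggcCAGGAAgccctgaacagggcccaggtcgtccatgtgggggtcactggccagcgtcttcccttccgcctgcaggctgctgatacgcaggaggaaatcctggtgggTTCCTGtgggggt
Stab2: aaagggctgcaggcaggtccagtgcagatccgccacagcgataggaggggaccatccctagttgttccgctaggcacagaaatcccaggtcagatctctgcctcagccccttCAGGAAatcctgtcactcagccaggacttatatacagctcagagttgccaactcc
The window searched was the 250 bases before the RefSeq start, and no motif overlapped another in it. ETS letters stood in 5 of the 6 promoters (all but that of Fcgr2b), against 35.1% of all 32851 mouse promoters of that length. GATA letters stood in those of Cd34 and Clec4g, against 26.5% of all promoters. The letters CACCC, which KLF factors bind, stood in those of Clec4g, Fcgr2b and Kdr, against 52.0% of all promoters. A match here describes letters only.

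CCl4 was set against oil to ask what the injury model changed. Lyve1 and Cd34 rose, and none of the 10 genes fell. Limma's test on log2(FPKM + 1) covered 9 of them, since Vwf lay below a mean of 1 FPKM over the table. It called 2 of the 9 higher and 0 lower at a Benjamini-Hochberg adjusted p under 0.05, where 15.3% of all 11511 genes tested were called, 9.19% higher and 6.15% lower. The members' count is near that background. Cd34 reached the filter only through the CCl4 groups, since it lay below 1 FPKM in every oil library, so its place among the 9 gives the count no support. The median log2 fold change was −0.14 over the 7 sinusoidal genes and 0.84 over the 2 capillarization genes tested, beside −0.08 over all genes.

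**Figure D1:**
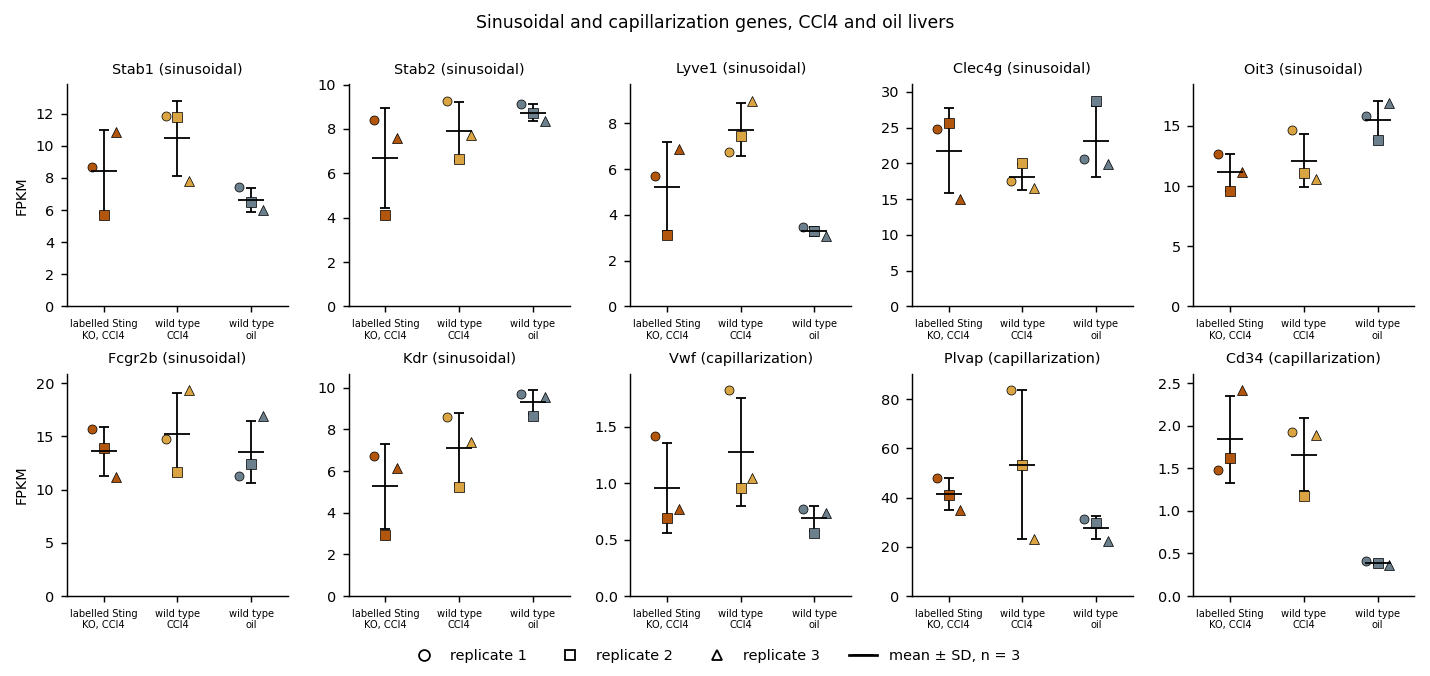
Deposited FPKM of the 10 genes (y axis, linear) in each library labelled Sting knockout with CCl4, wild-type CCl4 and wild-type oil (x axis); marker shapes are replicate numbers, and bars are mean ± SD, n = 3. Cd34 lay at 1.17 to 2.42 FPKM in all 6 CCl4 libraries, above the 3 oil libraries at 0.36 to 0.41 FPKM.

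Cd34 was at 1.92, 1.17 and 1.89 FPKM in wild-type CCl4 livers, against 0.41, 0.39 and 0.36 FPKM in oil livers. The groups did not overlap, and every CCl4 library had more than the highest oil library. Its log2 fold change was 0.93 (SE 0.20, limma adjusted p = 0.0119). The pseudocount understates the change of so low a gene: mean FPKM was 4.29 times as high with CCl4, and edgeR on recovered reads gave a log2 fold change of 2.08 (adjusted p = 0.00127), where 18.7% of its genes were called. With no filter it was called too (adjusted p = 0.0334), and without wild-type CCl4 replicate 3 it was called at 0.86 (adjusted p = 0.0300). Quantile normalization ended the call (adjusted p = 0.0970).

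Lyve1 was at 6.73, 7.45 and 8.99 FPKM in CCl4 livers, against 3.49, 3.27 and 3.08 FPKM in oil livers. The groups did not overlap, and the lowest CCl4 library lay well above the highest oil library. The log2 fold change was 1.02 (SE 0.25, limma adjusted p = 0.0192). The call was lost without wild-type CCl4 replicate 3 (adjusted p = 0.0573), without oil replicate 1, 2 or 3 (0.0590, 0.0717 and 0.0715) and with no filter on low genes (0.0509), while the log2 fold change over all alternatives stayed between 0.92 and 1.22. Its fellow hyaluronan receptor Stab2 was at 9.28, 6.65 and 7.74 FPKM in CCl4 livers, against 9.13, 8.71 and 8.35 FPKM in oil livers. Those groups overlapped, with a log2 fold change of −0.14 (SE 0.25, limma adjusted p = 0.782).

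Plvap had the highest mean of the 10 genes in all 3 groups, and in CCl4 livers the largest SD. It was at 83.6, 53.4 and 23.0 FPKM in CCl4 livers, against 31.3, 29.6 and 22.3 FPKM in oil livers. Replicate 1 and replicate 2 with CCl4 lay above every oil library, and replicate 3 lay within the oil range. The log2 fold change was 0.75 (SE 0.41, limma adjusted p = 0.263). Without wild-type CCl4 replicate 3 it was 1.25 and was called (adjusted p = 0.0228, where 12.5% of genes were called), and without replicate 1 it was 0.34 (adjusted p = 0.622). Replicate 3 is the library in which GC-rich genes were low, and Plvap has the highest GC content of the 10. Whether GC content lowered Plvap in that library was not tested. With GC content and length smoothed out of each library, an alternative added after the data were seen, Plvap was called at 0.99 (adjusted p = 0.0205), where 25.6% of all genes were called.

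Stab1 was at 11.9, 11.8 and 7.78 FPKM in CCl4 livers, against 7.46, 6.49 and 5.97 FPKM in oil livers. All 3 CCl4 libraries lay above the oil libraries, with a log2 fold change of 0.57 (SE 0.26) that did not pass (limma adjusted p = 0.174) and was called at 0.66 with the GC and length correction (adjusted p = 0.00794). Kdr was at 8.61, 5.23 and 7.41 FPKM in CCl4 livers, against 9.72, 8.64 and 9.54 FPKM in oil livers. All 3 CCl4 libraries lay below, with a log2 fold change of −0.37 (SE 0.28, limma adjusted p = 0.434). Without wild-type CCl4 replicate 3 neither was called, with log2 fold changes of 0.75 for Stab1 and −0.41 for Kdr (adjusted p = 0.0932 and 0.470).

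Vwf was at 1.83, 0.96 and 1.05 FPKM in CCl4 livers, against 0.77, 0.56 and 0.74 FPKM in oil livers. These groups did not overlap. The p of an exact permutation test (two-sided) was 0.1, and 3 against 3 libraries can give no smaller one. Clec4g was at 17.6, 20.1 and 16.6 FPKM in CCl4 livers, against 20.6, 28.8 and 19.9 FPKM in oil livers. Oit3 was at 14.6, 11.1 and 10.6 FPKM in CCl4 livers, against 15.8, 13.8 and 16.9 FPKM in oil livers. Fcgr2b was at 14.8, 11.7 and 19.3 FPKM in CCl4 livers, against 11.3, 12.4 and 16.9 FPKM in oil livers. The groups of these 3 sinusoidal genes overlapped, with log2 fold changes of −0.32, −0.34 and 0.15 (limma adjusted p = 0.492, 0.342 and 0.764). Without wild-type CCl4 replicate 3 they were −0.27, −0.26 and −0.02, and that of Stab2 was −0.13. In all, the groups did not overlap for 5 of the 10 genes, 4 higher and 1 lower. Of the 11511 genes tested, which leave out Vwf, 38.1% did not overlap, 16.6% higher and 21.4% lower.

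**Figure D2:**
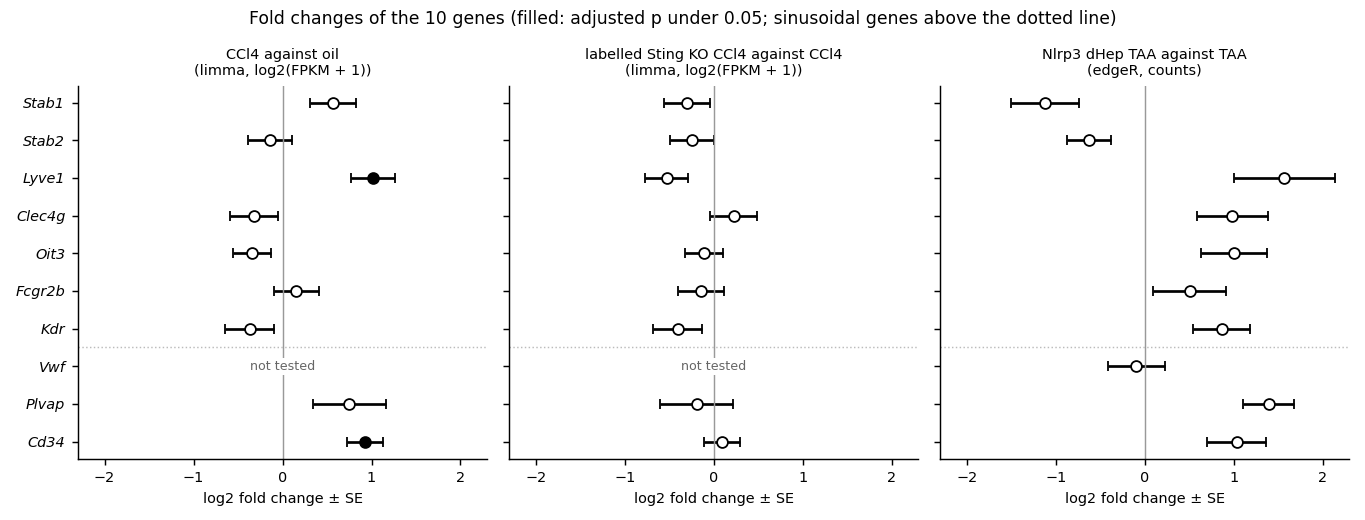
Log2 fold change (x axis) with its standard error for the 10 genes (y axis) in 3 comparisons, the first 2 by limma on log2(FPKM + 1) and the last by edgeR on counts; filled points have an adjusted p under 0.05 over all genes. Lyve1 at 1.02 and Cd34 at 0.93 are filled for CCl4 against oil, and no point is filled in the other comparisons.

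The same genes stood highest and lowest in CCl4 and oil livers, and the middle of the order changed. Plvap and Clec4g were the highest 2 in CCl4 and in oil livers, at 53.3 ± 30.3 and 18.1 ± 1.81 FPKM with CCl4 and at 27.8 ± 4.77 and 23.1 ± 4.95 FPKM with oil (SD, n = 3 each). Cd34 and Vwf were the lowest 2 in both, with Vwf last in CCl4 livers and Cd34 last in oil livers. Between them, Stab1 had rank 5 with CCl4 and rank 7 with oil, and Kdr had rank 8 with CCl4 and rank 5 with oil. Neighbours such as Stab2 (7.89 ± 1.32 FPKM), Lyve1 (7.72 ± 1.15 FPKM) and Kdr (7.08 ± 1.71 FPKM) in CCl4 livers differed by less than their SD.

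A ratio of 2 genes in the same library does not depend on that library's scaling. A relation to GC content or transcript length can remain in it. The ratios were computed after the data were seen and carry no test. Lyve1 over Stab2 was 0.726, 1.12 and 1.16 in CCl4 livers, against 0.382, 0.376 and 0.369 in oil livers. Cd34 over Stab2 was 0.208, 0.176 and 0.244 in CCl4 livers, against 0.0454, 0.0445 and 0.0431 in oil livers. Both ratios were nearly constant over the oil libraries and higher in every CCl4 library. Plvap over Stab2 was 9.01, 8.04 and 2.97 in CCl4 livers, against 3.43, 3.40 and 2.67 in oil livers, with replicate 3 among the oil values. Lyve1 over Cdh5 (VE-cadherin) was 0.305, 0.718 and 0.886 in CCl4 livers, against 0.246, 0.264 and 0.299 in oil livers, a narrow margin. Cd34 over Cdh5 was 0.0873, 0.113 and 0.186 in CCl4 livers, against 0.0292, 0.0313 and 0.0349 in oil livers. Plvap over Cdh5 was 3.79, 5.15 and 2.26 in CCl4 livers, against 2.21, 2.39 and 2.17 in oil livers, with overlap.

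**Figure D3:**
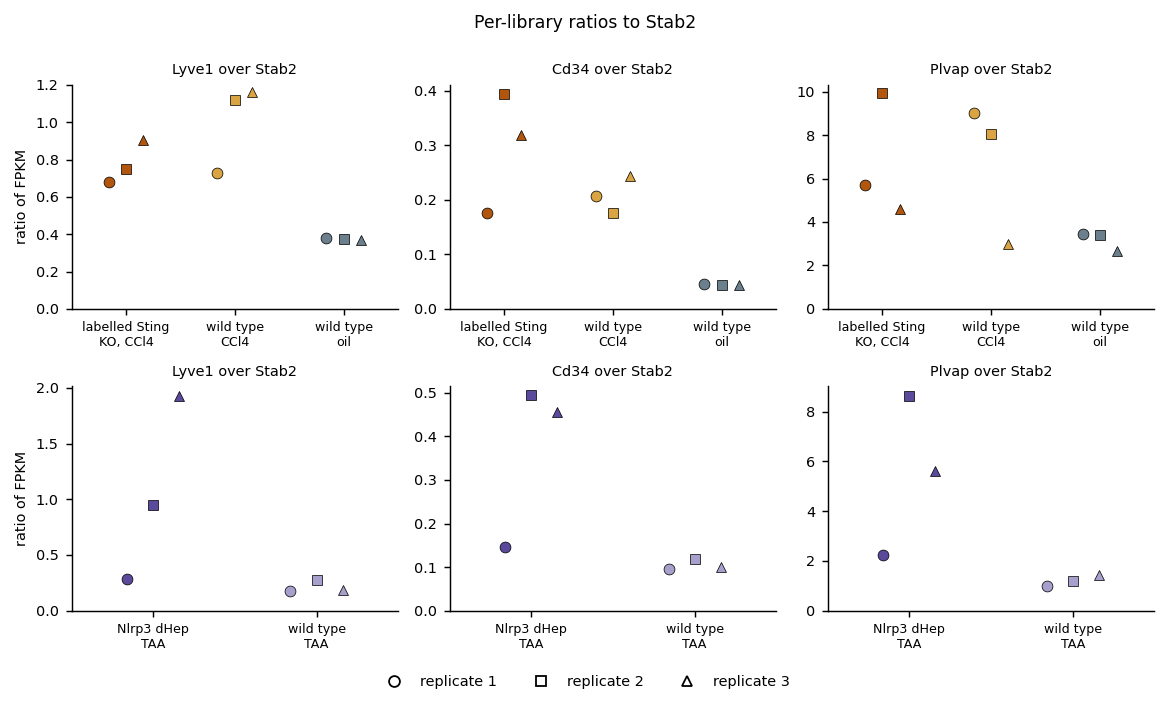
Ratio of the FPKM of Lyve1, Cd34 and Plvap to that of Stab2 in each library (y axis, linear), for the CCl4 table (upper row) and the TAA table (lower row); marker shapes are replicate numbers. Lyve1 over Stab2 was 0.369 to 0.382 in oil livers and at least 0.681 in every CCl4 library.

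Other genes of endothelium and its surroundings were counted by fixed lists. As with Cd34, a listed gene below 1 FPKM in oil livers enters the test only through the CCl4 groups. Such genes give the list counts no support. Of other sinusoidal genes, 1 of 19 tested rose, Msr1, a scavenger receptor of macrophages too (14.2 ± 3.60 FPKM in CCl4 livers and 4.39 ± 1.43 FPKM in oil livers, limma adjusted p = 0.00518), and 0 fell. Over 17 alternatives 1 to 3 of them were higher and 0 to 3 lower. The list summed to 326 to 408 FPKM in CCl4 livers and 410.2 to 430 FPKM in oil livers, lower in every CCl4 library. FPKM times gene length in kilobases, summed over all genes, was 857315 to 916803 in CCl4 livers and 1.10e+06 to 1.34e+06 in oil livers. The margin between 408 and 410.2 FPKM was small beside that difference. Single genes weigh on that sum. Aass was at 63.3, 39.7 and 50.2 FPKM in CCl4 livers, against 95.9, 83.9 and 103 FPKM in oil livers. Cd36 went the other way, at 33.7, 36.4 and 75.9 FPKM against 17.7, 14.6 and 30.7 FPKM. The list also summed to 166 to 182 FPKM in cultured hepatocytes with MCC950, so its sum is not of endothelium alone. Of pan-endothelial genes, 1 of 17 rose and 1 fell. Ecscr, an endothelial regulator of chemotaxis and apoptosis, was at 4.35 ± 0.40 FPKM in CCl4 livers and 1.57 ± 0.25 FPKM in oil livers (adjusted p = 0.0135). S1pr1, the sphingosine-1-phosphate receptor, was at 17.4 ± 4.54 FPKM in CCl4 livers and 37.8 ± 6.05 FPKM in oil livers (adjusted p = 0.0179). Cdh5, VE-cadherin, was at 22.1, 10.4 and 10.1 FPKM in CCl4 livers, against 14.2, 12.4 and 10.3 FPKM in oil livers, with overlap (adjusted p = 0.887). Pecam1, an adhesion molecule of all endothelium, was at 8.87, 6.99 and 7.63 FPKM in CCl4 livers, against 5.11, 4.48 and 5.82 FPKM in oil livers. All 3 CCl4 libraries lay above, with a log2 fold change of 0.53 (SE 0.20) that did not pass (adjusted p = 0.114).

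Of genes of continuous capillary, venous and activated endothelium, 7 of 12 rose and 0 fell, with a median log2 fold change of 1.06. Vcam1, a leukocyte adhesion molecule, was at 11.3 ± 5.30 FPKM in CCl4 livers and 1.33 ± 0.11 FPKM in oil livers (limma adjusted p = 0.00084). Sparcl1, a matrix protein, was at 14.01 ± 3.38 FPKM in CCl4 livers and 2.10 ± 0.30 FPKM in oil livers (adjusted p = 0.00068). Cd9 and Fabp4 rose too, with log2 fold changes of 1.32 and 1.20. Over 17 alternatives this list gave 3 to 7 genes higher.

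Of vascular basement membrane genes, 6 of 9 rose and 0 fell. Col4a1 and Col4a2, the main chains of basement membrane collagen IV, rose with log2 fold changes of 2.07 and 1.93 (limma adjusted p = 0.00416 and 0.00374), and Sparc and Nid1 rose by 2.45 and 1.98. Over the same alternatives 3 to 7 basement membrane genes were higher. Of the nitric oxide, shear and fenestration genes, 4 of 11 rose: Thbd, the thrombin receptor thrombomodulin (1.93), the endothelin receptor Ednrb (1.55), the guanylate cyclase subunit Gucy1a1 (1.35) and the transcription factor Klf4 (1.15). Of VEGF and angiopoietin genes, 2 of 11 rose, the lymphatic growth factors Vegfc (0.73) and Vegfd (0.94). Of angiocrine genes, 3 of 12 rose, Id1 (1.48), Inhbb (0.89) and Ackr3 (0.93). Ackr3 lay at 0.20 to 0.48 FPKM in oil livers, and 5 of the 13 listed angiocrine genes lay below a mean of 1 FPKM there. No gene of these lists fell.

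Genes of other cell types, some of which also express members, were higher in the same libraries. All 11 recruited macrophage genes tested rose, and their summed level was 366 to 553 FPKM in CCl4 livers and 67.8 to 74.1 FPKM in oil livers. Of these 11 genes, 6 lay below a mean of 1 FPKM in oil livers and 0 in CCl4 livers. Those 6 entered the test only through the CCl4 groups. Gpnmb, Lgals3, Cd68 and Trem2 had the smallest p among them. Of Kupffer cell genes 2 of 10 rose, Marco and Cd5l. Of the genes of CD34-positive fibroblasts and mesothelium 2 of 6 rose, Dpt and Gsn, with a summed list level of 39.8 to 71.8 FPKM in CCl4 livers and 12.4 to 21.3 FPKM in oil livers. Of stellate cell and myofibroblast genes 5 of 10 rose, led by Col3a1, Col1a1, Acta2 and Pdgfrb. Of the platelet genes Pf4 alone was tested and rose, while Gp1bb was listed at 0 in every library. Of B cell genes 1 of 2 rose (Cd79b), of leukocyte genes 3 of 4 (S100a9, S100a8 and Ptprc), of cholangiocyte genes 1 of 4 (Spp1), and of lymphatic genes 0 of 4, where Prox1 was at −0.82 and Flt4 at 0.14. Of hepatocyte genes 1 of 8 fell, Cyp2e1. The part of these cells in the values of Lyve1, Stab1, Fcgr2b, Cd34 and Vwf was not tested.

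The libraries labelled Sting knockout were set against wild-type CCl4 livers to ask what Sting changes in the injury. Limma called 0 of 11511 genes (0%) and 0 of the 9 members tested. At an unadjusted p under 0.05 there were 366 genes and 0 members, and edgeR on recovered reads called 0 genes. The groups overlapped for all 10 members. Of the 11511 genes tested, which leave out Vwf, 5.13% did not overlap, 2.35% higher and 2.78% lower. Same-numbered libraries of these groups deviated together. Within all 3 same-numbered pairs Stab2, Lyve1, Kdr and Vwf were lower in the labelled Sting knockout library, 4 of 10 members. Of the genes tested, without Vwf, 14.1% were lower and 15.9% higher in all 3 pairs. No member was higher in all 3. Across all genes the log2 fold change of this comparison ran against transcript length (Spearman's rho −0.53). The longest transcripts of Stab2, Kdr and Vwf have 8228, 5924 and 8834 bases, and that of Lyve1 has 2893 bases. Stab1, at 7999 bases, was lower in 2 of the 3 pairs. The shares over all genes tested are not matched for length. With the replicate number as a block none was called (limma adjusted p of 0.520 for Lyve1, 0.620 for Stab2 and 0.522 for Kdr). The median log2 fold change was −0.24 over the 7 sinusoidal genes and −0.05 over the 2 capillarization genes tested, beside 0.02 over all genes.

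Lyve1 was at 5.72, 3.10 and 6.87 FPKM in the libraries labelled Sting knockout, against 6.73, 7.45 and 8.99 FPKM in wild-type CCl4 livers. It had the smallest p of the members, with a log2 fold change of −0.53 (SE 0.25, limma adjusted p = 0.761). Stab1 was at 8.70, 5.71 and 10.8 FPKM, Stab2 at 8.39, 4.12 and 7.58 FPKM and Kdr at 6.71, 2.94 and 6.16 FPKM in the libraries labelled Sting knockout. For each of these 4 sinusoidal genes replicate 2 was the lowest of that group. It is the library in which long transcripts were low. Oit3 and Vwf were lowest there too, Clec4g was highest there, and Fcgr2b, Plvap and Cd34 lay between the other libraries. Whether transcript length lowered these values was not tested. Without labelled knockout replicate 2 the log2 fold changes of Lyve1, Stab1, Stab2 and Kdr were −0.25, −0.08, 0.02 and −0.10. Those of the other 5 members tested lay between −0.19 and 0.14, and 0 genes were called.

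Cd34 was at 1.48, 1.62 and 2.42 FPKM in the libraries labelled Sting knockout, against 1.92, 1.17 and 1.89 FPKM in wild-type CCl4 livers (log2 fold change 0.09, SE 0.20, limma adjusted p = 0.879). Plvap was at 47.9, 41.0 and 35.0 FPKM in the libraries labelled Sting knockout, all within the wild-type CCl4 range (log2 fold change −0.19, SE 0.41, adjusted p = 0.874). Without wild-type CCl4 replicate 3 it was at −0.69 (adjusted p = 0.821). Vwf was at 1.42, 0.69 and 0.77 FPKM in the libraries labelled Sting knockout, with an exact two-sided permutation p of 0.5. Clec4g, Oit3 and Fcgr2b had log2 fold changes of 0.22, −0.11 and −0.14 (adjusted p = 0.789, 0.869 and 0.853). Pecam1 was at 6.43, 4.16 and 5.51 FPKM in the libraries labelled Sting knockout, against 8.87, 6.99 and 7.63 FPKM in wild-type CCl4 livers. Its groups did not overlap (log2 fold change −0.48, SE 0.20, limma adjusted p = 0.761). Of the 17 other lists, 0 genes were called. The spread of these libraries limits what could be seen: the smallest SE of a member was 0.20 and the largest 0.41 on the log2 scale.

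The libraries labelled Sting knockout were also set against the same oil livers, so this comparison shares its samples with those above. Cd34 rose (log2 fold change 1.02, SE 0.20, limma adjusted p = 0.00836), 1 of the 9 members tested, where 13.9% of all genes were called, 8% higher and 5.91% lower. Kdr was at 6.71, 2.94 and 6.16 FPKM in the libraries labelled Sting knockout, against 9.72, 8.64 and 9.54 FPKM in oil livers, with no overlap. Its log2 fold change of −0.77 (SE 0.28) did not pass (adjusted p = 0.0914). With the replicate number as a block it was called lower (adjusted p = 0.0321), where 17.9% of genes were called. Without labelled knockout replicate 2 it was at −0.47 (adjusted p = 0.178). Stab1, at 0.27, was called only with the GC and length correction (adjusted p = 0.0434), where 23.3% of genes were called. Lyve1, at 0.49, did not pass either (adjusted p = 0.224), and with labelled Sting knockout replicate 2 left out it was called at 0.77 (adjusted p = 0.0220), where 14.5% of genes were called. Plvap lay above and Oit3 below the oil livers in all 3 libraries, with log2 fold changes of 0.56 and −0.45 (adjusted p = 0.408 and 0.203). Without labelled knockout replicate 2 they were at 0.56 and −0.35, and Cd34 was called at 1.07 (adjusted p = 0.0130). With Cd34 and Kdr that made 4 of 10 members whose groups did not overlap, 2 higher and 2 lower. Of the 11511 genes tested, which leave out Vwf, 37.6% did not overlap, 17.8% higher and 19.8% lower.

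Nlrp3 dHep livers were set against wild-type livers after TAA, which asks what loss of Nlrp3 in hepatocytes changes. EdgeR's quasi-likelihood test on counts called none of the 10 members, where it called 1.73% of 18619 genes (1.37% higher and 0.36% lower). At an unadjusted p under 0.05 there were 8 of the 10 members and 5375 of the 18619 genes. DESeq2 called 4 members, where it called 16.8% of its genes. The median log2 fold change was 0.87 over the 7 sinusoidal genes and 1.03 over the 3 capillarization genes, beside −0.04 over all genes. Both kinds of marker thus had medians above 0, and the 2 stabilins had fold changes below 0. In FPKM the groups did not overlap for 6 of 10 members, all higher. Of the 18619 genes tested 34.5% did not overlap, 27.8% higher and 6.68% lower. Deposited FPKM lack the scaling between libraries that the fit uses, and their ratio exceeded the fitted fold change for every member. For Clec4g it was 2.62 beside 1.97, for Vwf 1.20 beside 0.94, and for Sting1 0.99 beside 0.76. Overlap and sums in FPKM, here and below, carry that shift toward higher values in Nlrp3 dHep livers.

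**Figure D4:**
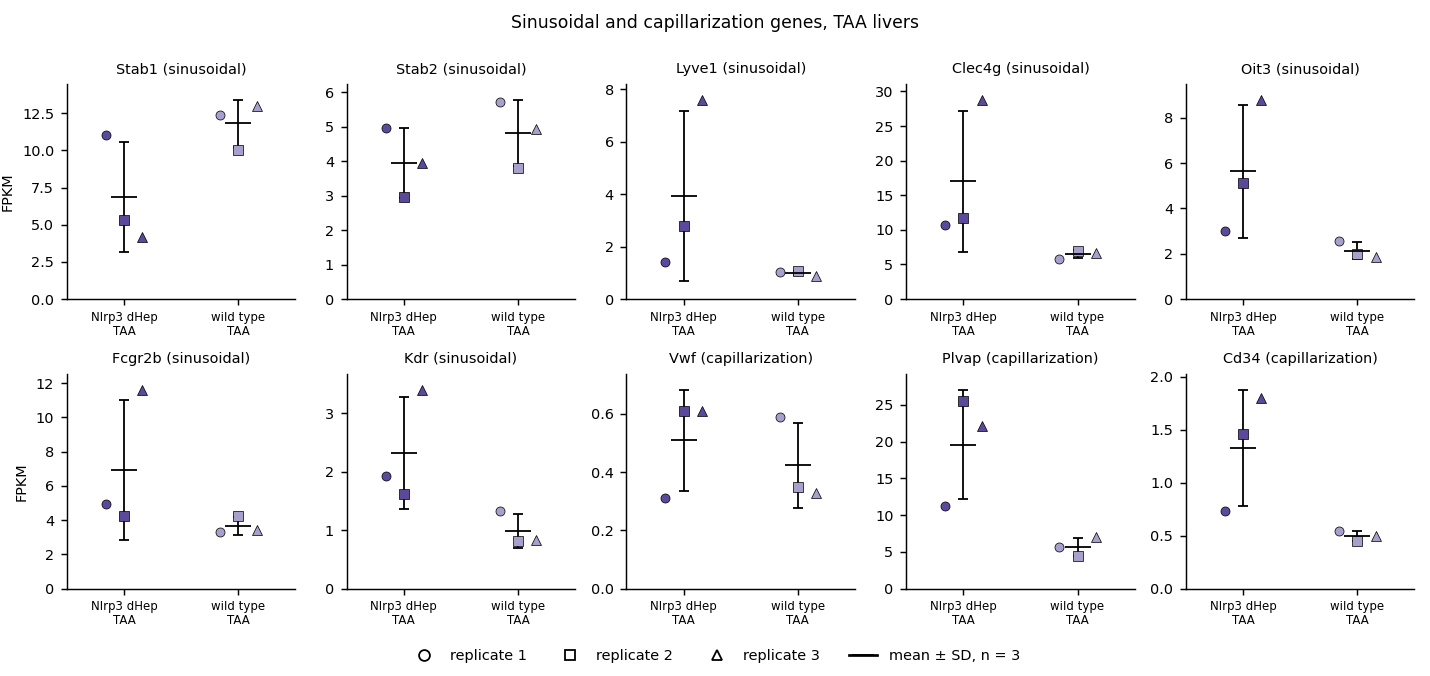
Deposited FPKM of the 10 genes (y axis, linear) in each Nlrp3 dHep and wild-type liver after TAA (x axis); marker shapes are replicate numbers, and bars are mean ± SD, n = 3. For Stab1, Nlrp3 dHep replicate 1 lies at 11.1 FPKM among the wild-type libraries, and the other Nlrp3 dHep libraries lie at 5.32 and 4.21 FPKM.

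Plvap was at 11.2, 25.5 and 22.1 FPKM in Nlrp3 dHep livers, against 5.61, 4.51 and 6.99 FPKM in wild-type TAA livers. All 3 lay above the wild-type libraries, and the log2 fold change was 1.40 (SE 0.29). Its edgeR adjusted p of 0.0501 missed the threshold by a small margin. Of 13 alternatives 6 called it and 7 did not. It was called by DESeq2 (adjusted p = 0.0007), by edgeR with no filter (0.0160, where 4.76% of genes were called), by limma on log2(FPKM + 1) (0.0182, where 23.7% were), without mitochondrial, rRNA and pseudogene counts (0.0467, where 3.72% were), with the GC and length correction (0.0496, where 3.82% were) and without Nlrp3 dHep replicate 1. It was not called with RLE size factors (0.0520), with the replicate number as a block (0.0802) or in the other 5 fits that left out 1 library (0.109 to 0.196). Over all 13 alternatives the log2 fold change lay between 1.22 and 1.67.

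Cd34 was at 0.73, 1.46 and 1.80 FPKM in Nlrp3 dHep livers, against 0.54, 0.45 and 0.50 FPKM in wild-type TAA livers. The groups did not overlap (log2 fold change 1.03, SE 0.33, edgeR adjusted p = 0.0942). Vwf was at 0.31, 0.61 and 0.61 FPKM in Nlrp3 dHep livers, against 0.59, 0.35 and 0.33 FPKM in wild-type TAA livers. Those groups overlapped, and its log2 fold change of −0.09 was the nearest to 0 of the 10.

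Lyve1 was at 1.40, 2.80 and 7.59 FPKM in Nlrp3 dHep livers, against 1.02, 1.06 and 0.90 FPKM in wild-type TAA livers. It had the largest fitted fold change of the 10 and the largest error (log2 fold change 1.57, SE 0.57, edgeR adjusted p = 0.121), and replicate 3 lay far above replicate 1. Clec4g was at 10.7, 11.7 and 28.8 FPKM in Nlrp3 dHep livers, against 5.82, 6.98 and 6.71 FPKM in wild-type TAA livers (0.98, SE 0.40, adjusted p = 0.153). Oit3 was at 3.01, 5.10 and 8.78 FPKM in Nlrp3 dHep livers, against 2.58, 2.00 and 1.85 FPKM in wild-type TAA livers (1.00, SE 0.37, adjusted p = 0.127). Kdr was at 1.93, 1.61 and 3.40 FPKM in Nlrp3 dHep livers, against 1.33, 0.81 and 0.83 FPKM in wild-type TAA livers (0.87, SE 0.32, adjusted p = 0.129). For these 4 sinusoidal genes replicate 3 was the highest library, and no Nlrp3 dHep library overlapped the wild-type ones. Fcgr2b, at 4.93, 4.26 and 11.6 FPKM in Nlrp3 dHep livers, overlapped the wild-type values of 3.29, 4.27 and 3.42 FPKM (0.51, SE 0.41, adjusted p = 0.447).

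The 2 stabilins had fitted changes below 0. Stab1 was at 11.1, 5.32 and 4.21 FPKM in Nlrp3 dHep livers, against 12.4, 10.0 and 13.0 FPKM in wild-type TAA livers. Nlrp3 dHep replicate 1 lay within the wild-type range, and the other replicates lay below it (log2 fold change −1.12, SE 0.38, edgeR adjusted p = 0.106). Stab2 was at 4.98, 2.95 and 3.94 FPKM in Nlrp3 dHep livers, against 5.71, 3.82 and 4.95 FPKM in wild-type TAA livers, with overlap (−0.63, SE 0.25, adjusted p = 0.149).

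The calls depended on Nlrp3 dHep replicate 1. Without it edgeR called 7 of the 10 members, where it called 38% of 19889 genes. Stab1 (−1.72, adjusted p = 0.000572) and Stab2 (−0.88, adjusted p = 0.00835) were then lower. Lyve1 (1.96, adjusted p = 0.00961), Clec4g (1.21, adjusted p = 0.0371), Oit3 (1.28, adjusted p = 0.0102), Plvap (1.65, adjusted p = 0.000656) and Cd34 (1.31, adjusted p = 0.00395) were then higher. Kdr (0.95), Fcgr2b (0.68) and Vwf (0.14) did not pass. The replicate number as a block left 0.0107% of genes called and no member. With Nlrp3 dHep replicate 2, replicate 3 or any wild-type library left out instead, none of the 10 was called. DESeq2, with all 6 libraries, called Stab1 lower and Lyve1, Plvap and Cd34 higher, where it called 16.8% of its genes.

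**Figure D5:**
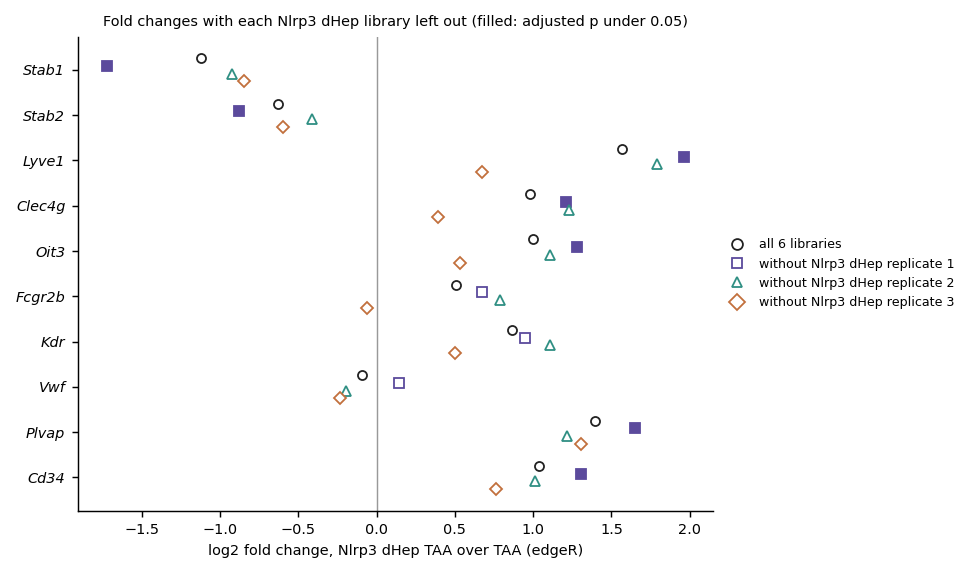
Log2 fold change of Nlrp3 dHep over wild-type TAA livers by edgeR (x axis) for the 10 genes (y axis), with all 6 libraries and with each Nlrp3 dHep library left out; filled points have an adjusted p under 0.05. The 7 filled points all belong to the fit without replicate 1, with Stab1 at −1.72 and Lyve1 at 1.96 at the ends.

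Ratios to Stab2 were computed for TAA livers in the same way. Plvap over Stab2 was 2.25, 8.63 and 5.61 in Nlrp3 dHep livers, against 0.982, 1.18 and 1.41 in wild-type TAA livers. Lyve1 over Stab2 was 0.281, 0.949 and 1.93 in Nlrp3 dHep livers, against 0.179, 0.277 and 0.182 in wild-type TAA livers. Cd34 over Stab2 was 0.147, 0.495 and 0.457 in Nlrp3 dHep livers, against 0.0946, 0.118 and 0.101 in wild-type TAA livers. In each of the 3 ratios replicate 1 was the lowest Nlrp3 dHep library and lay above the highest wild-type one. Stab2 itself was fitted at −0.63 in these livers. With Cdh5 as the divisor instead, the groups overlapped for all 3 genes. Plvap over Cdh5 was 7.74, 10.3 and 4.39 in Nlrp3 dHep livers, against 5.45, 4.25 and 7.44 in wild-type TAA livers. Lyve1 over Cdh5 was 0.966, 1.14 and 1.51, against 0.990, 1.00 and 0.957. Cd34 over Cdh5 was 0.503, 0.593 and 0.357, against 0.524, 0.425 and 0.532.

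Of the other sinusoidal genes 2 of 21 rose, Ctsl, the lysosomal protease cathepsin L (90.5 ± 25.7 FPKM in Nlrp3 dHep livers and 25.0 ± 4.86 FPKM in wild-type TAA livers, edgeR adjusted p = 0.0487), and Fcgrt, the neonatal Fc receptor (60.0 ± 8.92 FPKM in Nlrp3 dHep livers and 21.8 ± 4.56 FPKM in wild-type TAA livers, adjusted p = 0.0487). Both are also expressed in hepatocytes. Over 13 alternatives this list gave 0 to 8 genes higher and the hepatocyte list 0 to 6. Hepatocyte genes were higher in the same libraries: Serpina1a and Ass1 were 2 of 8 that rose, and Alb, albumin, was at 15016, 23320 and 23354 FPKM in Nlrp3 dHep livers, against 5215, 5674 and 4926 FPKM in wild-type TAA livers (log2 fold change 1.55, adjusted p = 0.0501). The hepatocyte list summed to 26216 to 33794 FPKM in Nlrp3 dHep livers and 9790 to 10433 FPKM in wild-type TAA livers. The part of that difference in the members' values was not tested.

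None of the genes of the other lists was called in Nlrp3 dHep livers. Of the pan-endothelial list 0 of 20 passed, with Egfl7 at −0.70 (SE 0.30) and Eng at 0.12 (SE 0.22), and Cdh5 was at 1.45, 2.46 and 5.04 FPKM in Nlrp3 dHep livers, against 1.03, 1.06 and 0.94 FPKM in wild-type TAA livers (1.15, SE 0.43, edgeR adjusted p = 0.133). Pecam1 was at 1.37, 2.3 and 4.33 FPKM in Nlrp3 dHep livers, against 0.94, 1.05 and 1.27 FPKM in wild-type TAA livers, with no overlap (0.89, SE 0.40, adjusted p = 0.186). Of the continuous, venous and activated list 0 of 17 passed, with Lrg1 at 0.84 and Cd9 at 0.71. Of the basement membrane list 0 of 11 passed, with Sparc at 1.05 and Nid1 at 1.35. Kupffer cell genes (0 of 10) had a median of 0.66 and recruited macrophage genes (0 of 11) a median of 0.35 on the log2 scale. The pan-endothelial list summed to 50.5 to 72.3 FPKM in Nlrp3 dHep livers and 40.5 to 47.3 FPKM in wild-type TAA livers. Stellate cell and myofibroblast genes (0 of 11) had a median of 0.56 and summed to 54.5 to 131 FPKM in Nlrp3 dHep livers and 34.5 to 50.5 FPKM in wild-type TAA livers. B cell genes (0 of 8) had a median of 0.76 and summed to 5.04 to 5.28 FPKM in Nlrp3 dHep livers and 2.24 to 2.99 FPKM in wild-type TAA livers. In each of these 3 lists every Nlrp3 dHep library lay above the wild-type ones, and their part in the members' values was not tested. The pan-endothelial margin of 50.5 over 47.3 FPKM and the stellate margin of 54.5 over 50.5 FPKM were smaller than the shift of FPKM against the fit. The CD34-positive fibroblast and mesothelial list (0 of 8) had a median of 0.61 and summed to 8.09 to 18.8 FPKM in Nlrp3 dHep livers and 4.2 to 7.12 FPKM in wild-type TAA livers. The platelet list (0 of 5) had a median of −1.57.

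MCC950 was set against no inhibitor in hepatocytes given LPS and nigericin, which asks what blocking NLRP3 changes in these cells. The members are not genes of hepatocytes, and most were near 0. Limma called 0 of 9835 genes (0%), with 1168 at an unadjusted p under 0.05, and edgeR on recovered reads called 0. Of the members 2 reached a mean of 1 FPKM. Lyve1 was at 2.28, 2.16 and 2.22 FPKM with MCC950, against 2.17, 1.99 and 1.83 FPKM without it (log2 fold change 0.10, SE 0.07, limma adjusted p = 0.526). Stab1 was at 1.44, 1.20 and 1.21 FPKM with MCC950, against 1.01, 1.41 and 1.31 FPKM without it (0.03, SE 0.10, adjusted p = 0.916). Stab2 had 56, 39 and 49 recovered reads with MCC950, against 41, 38 and 27 reads without it. Oit3 had 38, 20 and 16 reads with MCC950, against 13, 22 and 11 reads without it, and Fcgr2b had 29, 13 and 24 reads, against 24, 12 and 14 reads. Clec4g, Plvap, Vwf, Cd34 and Kdr had at most 8 reads in any library, and Kdr had 0 in all 3 libraries without the inhibitor. The groups overlapped for all 10 members, with exact two-sided permutation p-values of 0.2 to 1. Of the 9835 genes tested, which hold only 2 of the members, 19.7% did not overlap (8.88% higher and 10.8% lower).

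The order of levels in hepatocytes differed from that in the CCl4 table. Lyve1 and Stab1 were the highest 2 in both hepatocyte groups, while Plvap, the highest in the livers of the CCl4 table, was at 0.13 ± 0.09 FPKM with MCC950 and 0.15 ± 0.10 FPKM without it (SD, n = 3 each). In wild-type TAA livers Stab1 was the highest too, and Plvap had rank 3. The tables were normalized separately, so only the order within each is compared. Cdh5 was at 1.35, 1.23 and 1.56 FPKM with MCC950, against 1.54, 1.09 and 1.04 FPKM without it, and the macrophage gene Cd68 averaged 31.1 FPKM with MCC950 and 30.9 FPKM without it. The lymphatic genes Pdpn and Mmrn1 were listed at 0 in all 6 libraries.

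Genes with the most similar pattern were named for Stab2 and Plvap by the correlation of log2(FPKM + 1) over the 9 libraries of the CCl4 table. For Stab2 they were Rnf6 (Pearson's r 0.98), Hp1bp3 (0.97), Trappc10 (0.97), Abca3 (0.97) and Arhgef11 (0.97). None of these 5 is on any endothelial list used here, and their longest transcripts run between 3452 and 6776 bases. For Plvap they were Man2b2 (0.98), Cc2d1b (0.97), Hlx (0.94), Cebpd (0.94) and Atp13a2 (0.94), with GC contents of 51.6% to 62.5%. These points share libraries whose values moved with transcript length or GC content, and the correlations are a description.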

How the data were processed

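Bulk RNA was sequenced from mouse livers and primary hepatocytes. Per the submitters' processing notes, the tools were HISAT2 2.2.1 and featureCounts 1.5.0-p3, with the build mm10. The authors deposited raw counts and FPKM for the TAA livers, and FPKM with gene lengths for the other 2 tables. From the deposited FPKM and lengths, 100% of values gave whole reads within 0.05. The tables were normalized separately, and groups were compared only within a table.

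FPKM were tested with limma 3.58.1 on log2(FPKM + 1), with a mean of at least 1 FPKM and all libraries of a table in 1 fit. TAA counts were tested with edgeR 4.0.16 (quasi-likelihood, TMM, filterByExpr), and DESeq2 1.42.0 was an alternative. P-values were adjusted over all genes tested by Benjamini-Hochberg, with calls at under 0.05. The SE of an edgeR value is the log2 fold change over the root of F. Scripts were tested on simulated data. Depth limits low genes: counting error alone is large for members with under 10 reads. Genes named from other lists are the called ones with the smallest p, up to 4 a list, or the 2 with the highest mean FPKM where none was called; further names were chosen after their values were seen. The members and lists were chosen with earlier results of these data known.

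Same-numbered libraries deviated together in wild-type CCl4 and oil livers (r of 0.23, 0.32 and 0.52) and in the libraries labelled Sting knockout and wild-type CCl4 (0.19, 0.18 and 0.12). This pairing comes from the data alone. Ccl21a has 2 IDs in the FPKM tables and was left out there.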

Additional observations from a re-analysis of the deposited data

How the results depend on the processing

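Leaving out 1 library at a time gave 945 to 2468 genes called for CCl4 against oil (1 to 2 members higher), 780 to 1668 for the libraries labelled Sting knockout against oil (1 to 2 members higher), 0 to 1 for those libraries against wild-type CCl4, 0 to 1 for MCC950, and 0 to 7555 for Nlrp3 dHep against wild-type TAA livers (0 to 5 members higher and 0 to 2 lower). For CCl4 against oil, a mean of at least 5 FPKM gave 877 genes and 1 member, edgeR on recovered reads 2790 genes, no filter 1 member, quantile normalization 1 member, and the GC and length correction 2944 genes and 4 members. For the libraries labelled Sting knockout against oil, these gave 829 genes and 0 members at 5 FPKM, 2436 genes with edgeR, and 2677 genes and 2 members with the correction. With no filter, 2 genes were called against wild-type CCl4 and 2 for MCC950. For Nlrp3 dHep livers, RLE size factors gave 1 gene, DESeq2 3773 genes with 3 members higher and 1 lower, no filter 1593 genes and 1 member, limma 2642 genes and 2 members, leaving out mitochondrial, rRNA and pseudogene counts 647 genes and 1 member, and the correction 712 genes and 1 member. The cause of these shifts was not tested.

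With the replicate number as a block, 2227 genes were called for CCl4 against oil, 0 against wild-type CCl4, 2065 for the libraries labelled Sting knockout against oil, 0 for MCC950 and 2 for Nlrp3 dHep livers. Kdr then fell in the libraries labelled Sting knockout against oil (adjusted p = 0.0321), and the block changed no other call of a member. Same-numbered libraries did not pair by the rule for that comparison (r of 0.02, 0.18 and 0.09), for MCC950 (0.18, 0.22 and 0.09) or for TAA (0.08, −0.04 and −0.02).

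Values near 0 changed sign. With 1 library left out at a time, Fcgr2b ranged between −0.021 and 0.32 in CCl4 against oil. In the libraries labelled Sting knockout against wild-type CCl4, Stab2 ranged between −0.41 and 0.025, Oit3 between −0.20 and 0.027, Fcgr2b between −0.31 and 0.034, Plvap between −0.69 and 0.22, and Cd34 between −0.049 and 0.18. Against oil, Fcgr2b ranged between −0.098 and 0.17 and Clec4g between −0.23 and 0.14. With MCC950, Stab1 ranged between −0.050 and 0.080. In Nlrp3 dHep livers, Fcgr2b ranged between −0.061 and 0.84 and Vwf between −0.27 and 0.17. With the GC and length correction, Clec4g was at −0.084 in the libraries labelled Sting knockout against wild-type CCl4, and Vwf at 0.30 in Nlrp3 dHep livers. Over single genes and alternatives, 1881 values kept direction and call, 243 lost the call, 22 gained one and 20 changed sign. The GC and length correction, the fit of CCl4 against oil without labelled knockout replicate 2, and the ratios were chosen after seeing the data.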
